A study of Rattus norvegicus with 304 samples.

Results

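The middle of the TCDD dose arm in rat liver was examined: the groups collected 19 h after 1 or 10 µg/kg, called the lower and the higher dose. Samples were chosen by strain, dose and time from the labels. They comprise 16 samples on the OpenArray, 4 for each dose in each strain, of 150 samples run there, and the same number of 154 on the 7900HT. In all, 304 samples were run. The dioxin TCDD (2,3,7,8-tetrachlorodibenzo-p-dioxin) was given once by gavage in corn oil to male rats aged 10 to 12 weeks. Both strains are named in the labels by their sensitivity: Long-Evans as sensitive to TCDD, Han/Wistar as resistant. The reference was liver of vehicle-treated rats of the same strain at 19 h, with 6 Han/Wistar and 7 Long-Evans samples on the OpenArray and 7 of each on the 7900HT. Total liver RNA was reverse transcribed and quantified by real-time PCR, on the OpenArray for 49 targets and on the conventional 7900HT instrument for 39, of which 38 were measured on both. Since 150 sample titles occur on both platforms, the platforms are not independent. The authors' deposited table of each platform gives 1 log2 fold change per target and group. Its log base is inferred, its depth is unknown and values per animal were not used, so how much animals varied is unknown and each dose is a single group. In what follows, corn oil groups collected at other times, 4 in Han/Wistar rats and 2 in Long-Evans besides the one at 19 h, serve as the measured background. They carry differences of collection time as well as the noise of the assay.

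The receptor of TCDD is the aryl hydrocarbon receptor (AHR), which once bound enters the nucleus, pairs with ARNT and binds short DNA elements containing GCGTG. Its classical targets in liver encode enzymes that oxidise or conjugate foreign compounds, such as Cyp1a1, Cyp1a2, Cyp1b1, Nqo1 and Aldh3a1. Ahrr and Tiparp are also targets, and their products repress the receptor in turn. Of the hepatocyte markers, 6 were on the OpenArray (Mug1, Cyp1a2, Ugt1a1, Inmt, Fmo1 and Glud1), and no marker listed for Kupffer cells, stellate cells, endothelium, bile duct or lymphocytes was, so the labelled tissue could not be checked against other cell types. In bulk liver, fewer cells of a type and less RNA per cell cannot be told apart.

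At 1 µg/kg the largest values belonged to the AHR battery in both strains, and at 10 µg/kg more targets lay past 2-fold. In Han/Wistar, 7 of 49 targets were past 2-fold higher (14.3%) and 6 lower (12.2%) at 1 µg/kg, against 10 higher (20.4%) and 5 lower (10.2%) at 10 µg/kg. In Long-Evans, 8 were higher (16.3%) and 2 lower (4.08%) at 1 µg/kg, against 13 higher (26.5%) and 7 lower (14.3%) at 10 µg/kg. In corn oil groups at other times, 5 or 6 targets (10.2% to 12.5%) in Han/Wistar rats and 5 and 2 (10.2% and 4.08%) in Long-Evans were past 2-fold in either direction. The low-dose groups at 0.001, 0.01 and 0.1 µg/kg had 5, 7 and 4 such targets in Han/Wistar rats and 5, 6 and 10 in Long-Evans. The direction of these counts depends on where each group is centred. When the mean of the 47 targets listed in every group was subtracted, 6 targets were higher and 8 lower at 1 µg/kg and 8 and 14 at 10 µg/kg in Han/Wistar rats. In Long-Evans the same subtraction gave 7 and 8 at 1 µg/kg and 7 and 17 at 10 µg/kg, while subtracting the median gave 7 and 5, and 9 and 11. That mean was 0.35 and 0.61 in Han/Wistar rats and 0.43 and 0.68 in Long-Evans at 1 and 10 µg/kg. The median was -0.00 and 0.02 in Han/Wistar rats and 0.17 and 0.32 in Long-Evans.

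**Figure D1:**
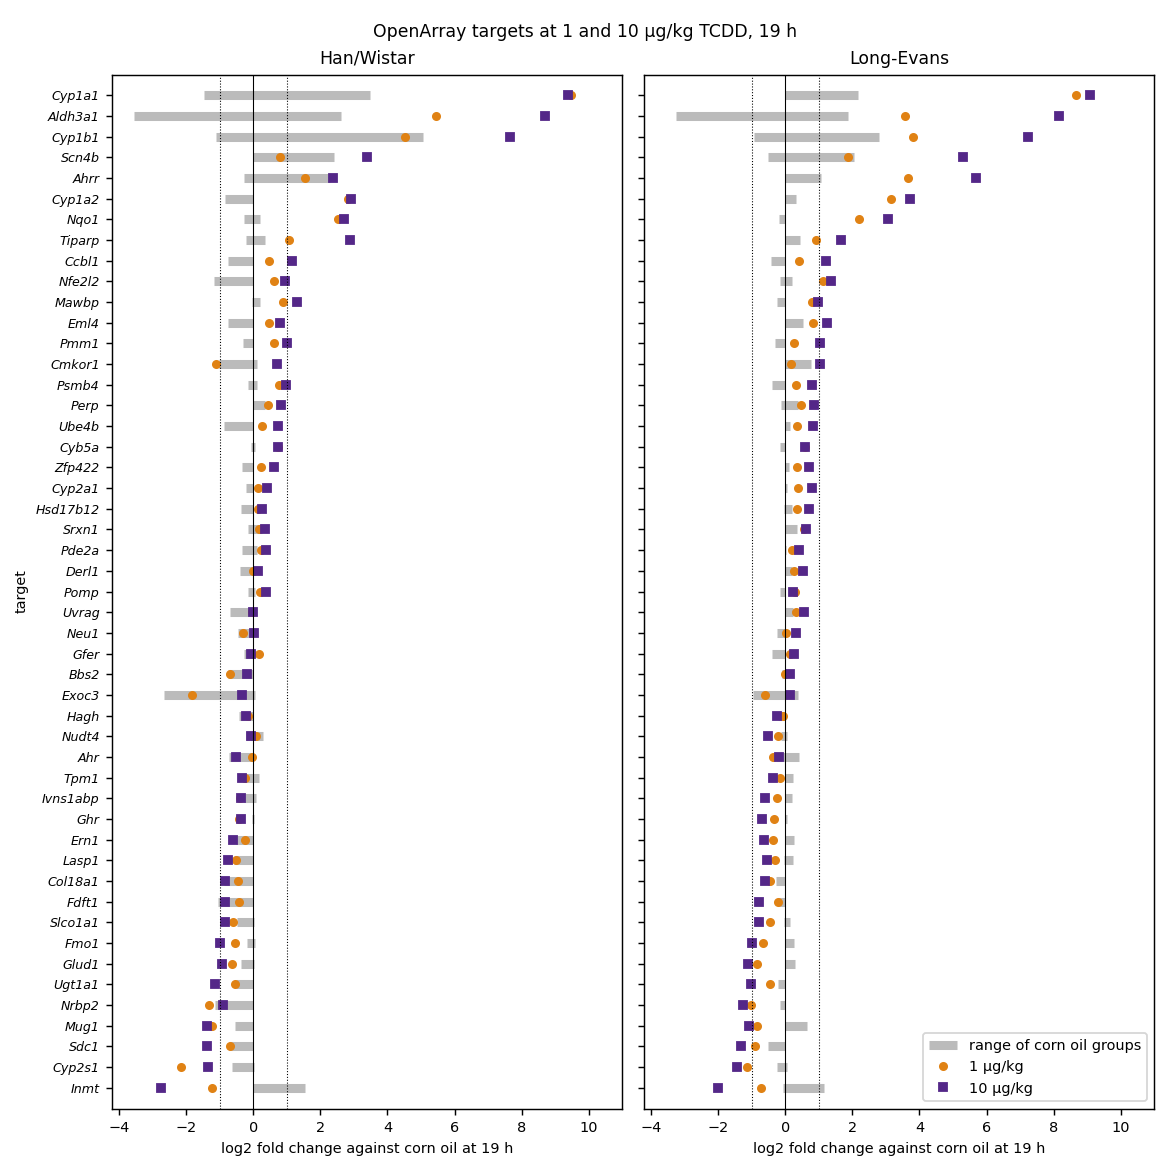
Log2 fold change (horizontal axis) of each of the 49 OpenArray targets at 1 µg/kg (circles) and 10 µg/kg (squares), with the range of the corn oil groups as grey bars and dotted lines at 2-fold; every point is 1 deposited group value. Cyp1a1 stands at 9.46 and 9.38 in Han/Wistar rats and at 8.66 and 9.07 in Long-Evans, and Inmt lies lowest at 10 µg/kg in both strains, at -2.74 and -1.99.

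The values of 1 and 10 µg/kg were then compared with the corn oil groups of all times by a two-sided exact permutation test stratified by strain, with Benjamini-Hochberg adjustment over the 49 targets. Of these, 40 passed an adjusted p of 0.05 (81.6%), 26 higher and 14 lower, and 40 were below 0.05 unadjusted. A share this large means that passing the test singles out few targets. Most targets tied at the smallest p the splits allow (adjusted exact permutation p = 0.00805). That value is reached where every dosed group lies beyond all corn oil groups of its strain, on the same side. Neither that p-value nor such non-overlap is therefore particular to a target named below. Of the 26 higher targets, 11 also passed as higher after subtraction of the group mean and of the group median: Aldh3a1, Ccbl1, Cyp1a1, Cyp1a2, Cyp1b1, Eml4, Mawbp, Nfe2l2, Nqo1, Pmm1 and Tiparp. For 11 others the sign turned once the group mean was subtracted (Cyp2a1, Derl1, Gfer, Hsd17b12, Neu1, Pde2a, Perp, Pomp, Srxn1, Uvrag and Zfp422), and their direction is therefore not given. The 14 lower targets also passed after either centring, which is no check on them, since both centrings lower every difference from corn oil: Cyp2s1, Ern1, Fmo1, Ghr, Glud1, Inmt, Ivns1abp, Lasp1, Mug1, Nrbp2, Sdc1, Slco1a1, Tpm1 and Ugt1a1. In total, 11 targets were higher and 24 lower with the mean subtracted, and 18 and 18 with the median. The targets that missed the threshold as deposited were Ahr, Bbs2, Cmkor1, Col18a1, Exoc3, Fdft1, Hagh, Nudt4 and Scn4b. Each p-value reflects how groups, not animals, vary, and leaving out either dose left 24 possible splits, too few for any call after adjustment (37 targets below 0.05 unadjusted without 1 µg/kg and 27 without 10 µg/kg).

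The phase I enzymes Cyp1a1 and Cyp1a2 rose, and on the OpenArray their values at the lower dose were close to those at the higher dose. The authors' deposited table lists Cyp1a1 at 9.46 and 9.38 in Han/Wistar rats and at 8.66 and 9.07 in Long-Evans for 1 and 10 µg/kg. These are 703-fold and 665-fold, and 406-fold and 539-fold, over corn oil. Its corn oil groups in the authors' deposited table ran from -1.48 to 3.47 in Han/Wistar rats and from 0 to 2.16 in Long-Evans, well below all 4 dosed groups. Relative to corn oil it differed by 8.30 on the log2 scale (adjusted exact permutation p = 0.00805, higher in 4 of 4 groups). The linear level at 1 µg/kg was 69.3% of that at 100 µg/kg in Han/Wistar rats and 57.3% in Long-Evans. Cyp1a2, which also marks hepatocytes, is listed in the authors' deposited table at 2.82 and 2.92 in Han/Wistar rats and at 3.15 and 3.72 in Long-Evans. All 4 values lay above every corn oil group, whose highest value in the authors' deposited table was 0 in Han/Wistar rats and 0.32 in Long-Evans. The Cyp1a2 difference from corn oil was 3.35 (adjusted exact permutation p = 0.00805), and its level at 10 µg/kg came to 38.5% of the 100 µg/kg level in Han/Wistar rats and 89.9% in Long-Evans. On the 7900HT the doses lay further apart. The factor from 1 to 10 µg/kg there was 2.20 in Han/Wistar rats and 16.1 in Long-Evans for Cyp1a1, and 0.53 and 3.12 for Cyp1a2.

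Nqo1, which reduces quinones, also rose, by 2.68 on the log2 scale over corn oil (adjusted exact permutation p = 0.00805). In the authors' deposited table it stood at 2.52 and 2.71 in Han/Wistar rats and at 2.20 and 3.06 in Long-Evans. No corn oil group exceeded 0.20 there, so the groups did not overlap. Just below these doses, at 0.1 µg/kg, the authors' deposited table gives Nqo1 as 0.53 in Han/Wistar rats and 1.26 in Long-Evans, so only in Han/Wistar does it pass 2-fold for the first time at 1 µg/kg. The 7900HT lists Nqo1 at 1.06 and -0.18 in Han/Wistar rats and at 0.56 and 4.40 in Long-Evans at 1 and 10 µg/kg. It missed the threshold against corn oil there, with a difference of 2.56 (adjusted exact permutation p = 0.111). Nfe2l2, which encodes the NRF2 activator of antioxidant genes, rose less on the OpenArray. It is listed in the authors' deposited table at 0.62 and 0.94 in Han/Wistar rats and at 1.12 and 1.36 in Long-Evans, all above its corn oil groups.

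Tiparp encodes an ADP-ribosyltransferase that limits AHR activity, and it rose by 1.50 over corn oil (adjusted exact permutation p = 0.00805). In Han/Wistar the authors' deposited table shows 0.07 at 0.1 µg/kg, 1.07 at the lower and 2.89 at the higher dose, where the level is 91.0% of that at 100 µg/kg. In Long-Evans the authors' deposited table shows 0.30, 0.92 and 1.67 at those doses, and the level at 10 µg/kg is 36.8% of that at 100 µg/kg. On the 7900HT Tiparp missed the threshold against corn oil, with a difference of 0.45 (adjusted exact permutation p = 0.783). Ahrr, the AHR repressor, was more variable in OpenArray controls. The authors' deposited table lists it at 1.53 and 2.37 in Han/Wistar, where corn oil groups reached 2.29, and at 3.65 and 5.68 in Long-Evans, where they reached 1.07. In Han/Wistar the value at 1 µg/kg thus lay inside the corn oil range, whereas both Long-Evans values lay above it. No Ahrr value is listed for Han/Wistar corn oil at 1.5 h, so its test used 150 splits (difference 2.66, adjusted exact permutation p = 0.0419), and with the group mean or median subtracted it kept its sign but missed the threshold (adjusted exact permutation p = 0.0544 and 0.0516). Ahr itself, the receptor, missed the threshold (adjusted exact permutation p = 0.755) and is listed in the authors' deposited table at -0.04 and -0.51 in Han/Wistar rats and -0.36 and -0.18 in Long-Evans.

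Aldh3a1, an aldehyde dehydrogenase, and Cyp1b1, a cytochrome P450, showed the highest values after Cyp1a1 at 10 µg/kg. The authors' deposited table gives Aldh3a1 as 5.45 and 8.70 in Han/Wistar rats and as 3.57 and 8.16 in Long-Evans at 1 and 10 µg/kg. Both doses exceeded its corn oil groups, which spread over -3.54 to 2.62 and -3.26 to 1.87 in the authors' deposited table. At lower doses it was erratic, since the authors' deposited table has 1.10, -2.86 and -0.51 in Han/Wistar rats and -6.10, -5.55 and -2.46 in Long-Evans at 0.001, 0.01 and 0.1 µg/kg. Cyp1b1 is given in the authors' deposited table as 4.53 and 7.65 in Han/Wistar rats and as 3.81 and 7.24 in Long-Evans. Here the Han/Wistar value at 1 µg/kg fell inside the corn oil range, which reached 5.05 in that strain and 2.79 in Long-Evans. Against corn oil, Aldh3a1 differed by 6.99 (adjusted exact permutation p = 0.00805) and Cyp1b1 by 4.73 (adjusted exact permutation p = 0.0324). Scn4b, a sodium channel beta subunit, is listed in the authors' deposited table at 0.80 and 3.38 in Han/Wistar rats and at 1.88 and 5.28 in Long-Evans, with corn oil groups up to 2.42 and 2.06. Its values at 1 µg/kg lay inside the corn oil range in both strains and those at 10 µg/kg above it, and with Han/Wistar corn oil at 384 h not listed it missed the threshold (adjusted exact permutation p = 0.0956). On the 7900HT the authors' deposited table gives Aldh3a1 as -1.06 and 3.12 in Han/Wistar rats and -3.24 and 3.51 in Long-Evans. Cyp1b1 is given there as 0.38 and 2.89, and 1.33 and 6.51. Both missed the threshold against corn oil on that platform, with differences of -0.61 and 2.81 (adjusted exact permutation p = 0.895 and 0.257).

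**Figure D2:**
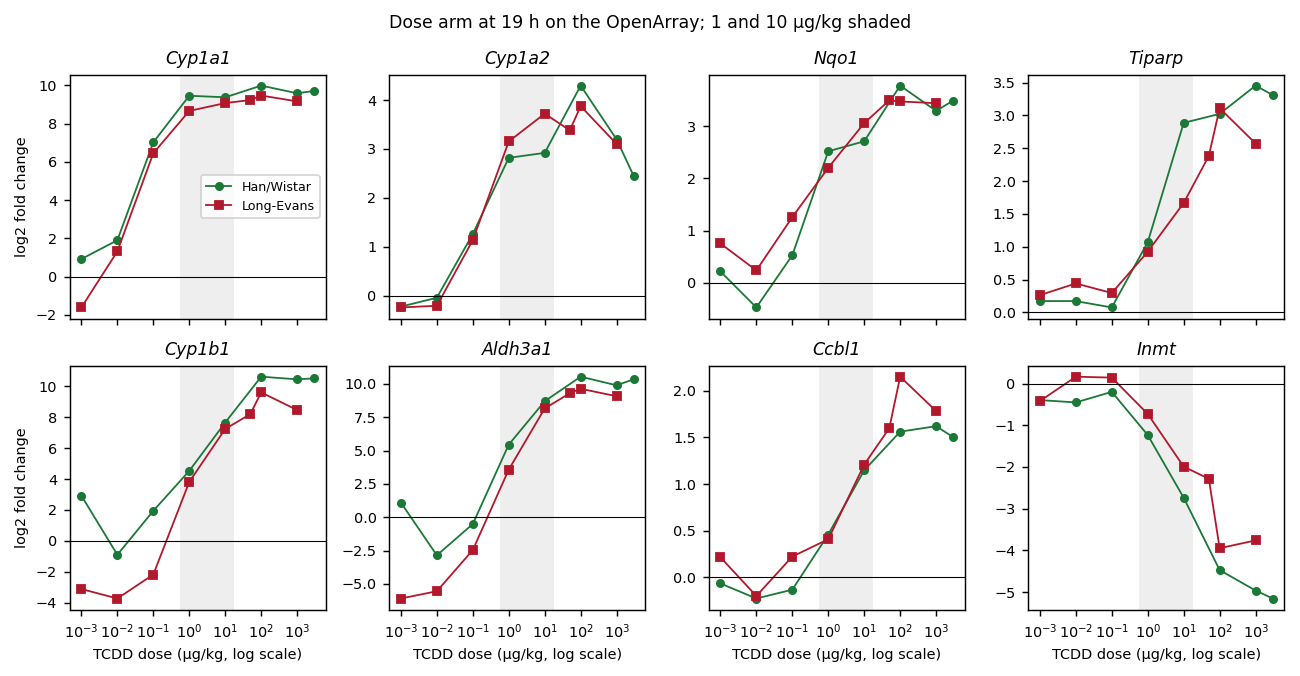
Log2 fold change of 8 OpenArray targets against TCDD dose on a log axis at 19 h in Han/Wistar (circles) and Long-Evans (squares), with 1 and 10 µg/kg shaded; each point is 1 deposited group value and no error is known. Cyp1a1 is near its upper values from 1 µg/kg, at 9.46 and 8.66, whereas Aldh3a1 goes from 5.45 to 8.70 in Han/Wistar rats and from 3.57 to 8.16 in Long-Evans within the shaded span.

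Promoters were searched for GCGTG, the core of the AHR element, on both strands (CACGC on the strand shown). They run from 250 bases before to 50 after the start and come from the RefSeq table for GRCr8, whose coordinates are printed. Of all 33469 promoters, 9939 (29.7%) hold the core, as do 19 of the 42 OpenArray targets with a listed promoter (45.2%). Among targets past 2-fold higher at 10 µg/kg in both strains 4 of 7 with a listed promoter hold it, and among those past 2-fold lower 0 of 5. The promoters of Aldh3a1, Cyp1a1, Derl1, Ern1, Fdft1, Lasp1 and Nrbp2 were not analysed here. A match is a run of letters and not a measured binding site, and its absence says only that these letters are not in this window. The promoters printed here, with matches in capitals and otherwise lower case, belong to an inducible gene with a large step between the doses (Cyp1b1, chr6:21094315-21094614, plus strand), a higher target first past 2-fold at 1 µg/kg in Han/Wistar rats and at 10 µg/kg in Long-Evans (Tiparp, chr2:152063519-152063818, plus strand), a gene raised at both doses with a smaller step (Nqo1, chr19:52220218-52220517, minus strand) and the target with the lowest value at 10 µg/kg in both strains (Inmt, chr4:85652706-85653005, minus strand, with no match).
Cyp1b1: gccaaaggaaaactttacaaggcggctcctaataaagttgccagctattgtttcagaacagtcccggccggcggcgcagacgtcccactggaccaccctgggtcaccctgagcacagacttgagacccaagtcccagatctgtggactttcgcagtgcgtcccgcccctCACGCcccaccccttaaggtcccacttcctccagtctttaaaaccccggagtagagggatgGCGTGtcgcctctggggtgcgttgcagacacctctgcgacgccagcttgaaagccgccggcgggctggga
Tiparp: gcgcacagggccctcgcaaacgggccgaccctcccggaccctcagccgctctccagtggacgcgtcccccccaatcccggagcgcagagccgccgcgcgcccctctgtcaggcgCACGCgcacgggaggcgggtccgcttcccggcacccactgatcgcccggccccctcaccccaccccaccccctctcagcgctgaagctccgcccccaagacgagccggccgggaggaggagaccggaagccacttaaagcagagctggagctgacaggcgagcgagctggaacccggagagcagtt
Nqo1: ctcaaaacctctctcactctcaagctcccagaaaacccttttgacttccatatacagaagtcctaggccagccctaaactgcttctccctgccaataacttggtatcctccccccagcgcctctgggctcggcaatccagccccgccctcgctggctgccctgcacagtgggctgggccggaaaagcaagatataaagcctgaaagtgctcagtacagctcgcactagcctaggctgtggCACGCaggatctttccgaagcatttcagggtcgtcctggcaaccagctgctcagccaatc
Inmt: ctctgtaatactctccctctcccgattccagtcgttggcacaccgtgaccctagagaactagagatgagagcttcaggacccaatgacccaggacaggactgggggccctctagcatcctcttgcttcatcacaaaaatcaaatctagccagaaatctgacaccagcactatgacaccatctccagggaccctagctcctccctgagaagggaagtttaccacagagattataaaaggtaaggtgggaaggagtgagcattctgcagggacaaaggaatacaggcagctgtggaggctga

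Inmt, an indolethylamine N-methyltransferase, fell and had the lowest value of all targets at 10 µg/kg in both strains. The authors' deposited table lists it at -1.24 and -2.74 in Han/Wistar rats and at -0.73 and -1.99 in Long-Evans at 1 and 10 µg/kg. Its corn oil groups ranged upward from 0 to 1.53 and from -0.06 to 1.17 in the authors' deposited table, so the dosed groups lay below all of them. Compared with corn oil it differed by -2.24 on the log2 scale (adjusted exact permutation p = 0.00805, lower in 4 of 4 groups). As a share of the level at 100 µg/kg, Inmt was at 943% and 931% at the lower dose in Han/Wistar rats and Long-Evans, and at 333% and 388% at the higher dose. Among the other hepatocyte markers, Mug1, Ugt1a1, Fmo1 and Glud1 also passed as lower and Cyp1a2 as higher. Mug1, a secreted protease inhibitor, is given in the authors' deposited table as -1.23 and -1.39 in Han/Wistar rats and as -0.83 and -1.07 in Long-Evans. Ugt1a1, the bilirubin glucuronosyltransferase, is given in the authors' deposited table as -0.54 and -1.13 in Han/Wistar rats and -0.44 and -1.03 in Long-Evans. Fmo1, a flavin monooxygenase, approached 2-fold only at 10 µg/kg, where the authors' deposited table has -0.98 in Han/Wistar rats and -0.99 in Long-Evans. What part the amount of hepatocyte RNA has in these lower values was not tested.

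Cyp2s1, a further cytochrome P450, was lowest at 1 µg/kg in Han/Wistar on the OpenArray. The authors' deposited table gives -0.24, -2.16, -1.35 and -0.38 across 0.1, 1, 10 and 100 µg/kg in that strain. In Long-Evans the authors' deposited table gives -1.06, -1.15, -1.43 and -0.19 at the same doses. In both strains the values at 1 and 10 µg/kg therefore lay below that at 100 µg/kg, and this target fell against corn oil by 1.40 (adjusted exact permutation p = 0.00805), against the low doses by 0.93 (adjusted exact permutation p = 0.0188) and against the high doses by 0.81 (adjusted exact permutation p = 0.0490). With the group mean or median subtracted it missed the threshold against the high doses (adjusted exact permutation p = 0.118 and 0.135). On the 7900HT 2 of its 4 values have the opposite sign: the authors' deposited table of that platform lists it at 8.98 and -0.17 in Han/Wistar rats and at -1.41 and 2.18 in Long-Evans, with corn oil groups up to 2.16 and 0.69. Sdc1, the proteoglycan syndecan, fell by 0.68 against corn oil (adjusted exact permutation p = 0.0226). It is listed in the authors' deposited table at -0.69 and -1.38 in Han/Wistar rats and at -0.91 and -1.32 in Long-Evans, with corn oil groups down to -0.72 and -0.52. Only the Han/Wistar value at 1 µg/kg overlapped its corn oil groups.

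On the OpenArray, targets were called newly past 2-fold at a dose where no lower dose was past 2-fold in the same direction. In Han/Wistar 5 of 49 were new at 1 µg/kg (10.2%), Nqo1 and Tiparp higher and Cmkor1, Cyp2s1 and Inmt lower. Of these, Nqo1, Tiparp and Inmt were past 2-fold at every higher dose as well. At 10 µg/kg 4 were new (8.16%), namely Ccbl1 and Mawbp higher and Sdc1 and Ugt1a1 lower, and 3 of them, all but Sdc1, stayed past 2-fold at every higher dose. In Long-Evans 5 were new at 1 µg/kg (10.2%): Aldh3a1, Cyp1b1, Nfe2l2 and Scn4b higher and Nrbp2 lower, each also past 2-fold at all higher doses. At 10 µg/kg 9 were new (18.4%), with Ccbl1, Cmkor1, Eml4, Pmm1 and Tiparp higher and Glud1, Inmt, Sdc1 and Ugt1a1 lower, and 8 of them, all but Ugt1a1, stayed so. Aldh3a1 and Cyp1b1 do not count as new in Han/Wistar because the authors' deposited table has them at 1.10 and 2.93 at 0.001 µg/kg, values within their corn oil ranges. The direction of new calls shifted with centring, from 2 higher and 3 lower to 1 and 7 at 1 µg/kg and from 2 and 2 to 1 and 9 at 10 µg/kg in Han/Wistar with the mean subtracted. In Long-Evans they went from 4 and 1 to 3 and 5, and from 5 and 4 to 0 and 10. With the median subtracted they were 2 and 5, and 2 and 3, in Han/Wistar rats and 3 and 3, and 2 and 6, in Long-Evans. By the same rule on the 7900HT, 4 of 39 targets were new at 1 µg/kg in Han/Wistar rats, Ahrr, Cyb5a, Cyp2s1 and Nqo1, all higher. At 10 µg/kg 3 were new, Aldh3a1, Cyp1b1 and Exoc3, all higher. In Long-Evans 0 were new at 1 µg/kg and 6 at 10 µg/kg, Cyp2s1 higher and Ern1, Ivns1abp, Neu1, Pmm1 and Pomp lower. Only Nqo1 in Han/Wistar at 1 µg/kg was new in the same direction on both platforms.

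Several new targets sit close to the threshold on the OpenArray. Ccbl1, now named Kyat1, is a kynurenine aminotransferase that rose by 1.12 over corn oil (adjusted exact permutation p = 0.00805). The authors' deposited table has it at 0.46 and 1.15 in Han/Wistar rats and at 0.41 and 1.21 in Long-Evans. Both strains thus crossed 2-fold between the doses on the OpenArray. Mawbp, now Pbld1, is listed in the authors' deposited table at 0.89 and 1.31 in Han/Wistar rats and at 0.79 and 0.98 in Long-Evans, just short of 2-fold in the latter. Pmm1, a phosphomannomutase, is listed in the authors' deposited table at 0.63 and 0.99 in Han/Wistar rats and at 0.25 and 1.05 in Long-Evans, which puts the strains on opposite sides of 2-fold at 10 µg/kg although their values differ little. Eml4, a microtubule-associated protein, has 0.46 and 0.81 in Han/Wistar rats and 0.83 and 1.24 in Long-Evans rats in the authors' deposited table. Glud1, glutamate dehydrogenase, has -0.63 and -0.94 in Han/Wistar rats and -0.85 and -1.10 in Long-Evans rats in the authors' deposited table, and it fell by 0.93 against corn oil (adjusted exact permutation p = 0.00805). Cmkor1, now Ackr3, encodes a chemokine scavenger receptor. It is listed at -1.11 and 0.70 in Han/Wistar rats and at 0.17 and 1.05 in Long-Evans rats in the authors' deposited table, and at 100 µg/kg the Han/Wistar value was -0.53, so its dose series has no single direction. Nrbp2, a pseudokinase, has -1.31 and -0.91 in Han/Wistar, where corn oil groups reached -1.13, and -1.02 and -1.27 in Long-Evans, where they reached -0.15, in the authors' deposited table.

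The step from 1 to 10 µg/kg was a comparison of 1 group with 1 group, without a replicate check. Most targets differed by less than 2-fold between the doses on the OpenArray. The median signed step, in which rises and falls cancel, was 0.16 in Han/Wistar rats and 0.19 in Long-Evans. The median absolute step was 0.35 in each strain. In Han/Wistar 7 of 49 targets had a step past 2-fold (14.3%), upward for Aldh3a1, Cmkor1, Cyp1b1, Exoc3, Scn4b and Tiparp and downward for Inmt. In Long-Evans 5 had one (10.2%), upward for Ahrr, Aldh3a1, Cyp1b1 and Scn4b and downward for Inmt. For Aldh3a1 the step was 9.53-fold in Han/Wistar rats and 24.0-fold in Long-Evans, for Cyp1b1 8.72-fold and 10.7-fold, and for Scn4b 5.98-fold and 10.6-fold. Ahrr stepped up 1.80-fold in Han/Wistar rats and 4.08-fold in Long-Evans. Tiparp stepped up 3.53-fold and 1.67-fold, and Cmkor1 3.49-fold and 1.84-fold. Exoc3, a subunit of the exocyst that tethers vesicles, stepped up 2.86-fold in Han/Wistar rats and 1.68-fold in Long-Evans, and both of its Han/Wistar values lay inside the corn oil range. Cyp1a1 in contrast had a step factor of 0.95 in Han/Wistar rats and 1.33 in Long-Evans, and Nqo1 one of 1.14 and 1.81. The corn oil groups spread widely for some of these targets. Among steps past 2-fold, those of Cmkor1, Scn4b and Tiparp in Han/Wistar rats and of Ahrr, Scn4b and Inmt in Long-Evans exceeded that spread. Of all 49 targets, whatever the size of the step, 11 exceeded it in Han/Wistar rats and 27 in Long-Evans, where the spread covers fewer corn oil groups. Subtracting the group mean or median left 7 and 5 targets past 2-fold, 6 and 4 of them upward. On the 7900HT 7 of 39 targets stepped past 2-fold upward and 5 downward in Han/Wistar rats, and 11 and 22 of 38 in Long-Evans. Cyp1a1 was among the upward ones in both strains, with step factors of 2.20 and 16.1, and Nqo1 had factors of 0.42 and 14.3.

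**Figure D3:**
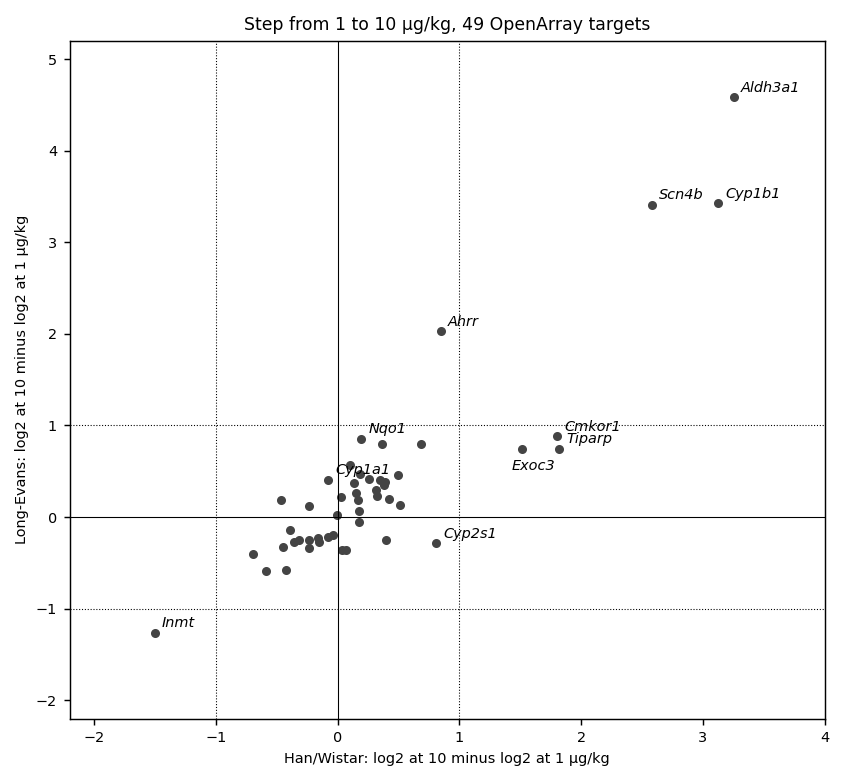
Step from 1 to 10 µg/kg (log2 at 10 minus log2 at 1 µg/kg) in Han/Wistar on the horizontal and Long-Evans on the vertical axis for the 49 OpenArray targets, with dotted lines at 2-fold. Aldh3a1, Cyp1b1 and Scn4b lie past 2-fold upward in both strains and Inmt past 2-fold downward, and most other targets lie within the dotted lines.

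Neighbouring steps of the dose arm give the setting for these counts. Between 0.1 and 1 µg/kg the step passed 2-fold for 8 targets in Han/Wistar rats and 6 in Long-Evans. Above the higher dose it did so for 9 in Han/Wistar up to 100 µg/kg, and in Long-Evans for 3 up to 50 µg/kg and 2 more between 50 and 100 µg/kg. The gap from 10 to 50 µg/kg is narrower than a decade, so these last counts are not set against the others.

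Against the low doses (0.001, 0.01 and 0.1 µg/kg), 33 of 49 targets passed the same exact permutation test (67.3%), 21 higher and 12 lower, with 34 below 0.05 unadjusted. The split became 6 higher and 26 lower with the group mean subtracted, and 15 and 16 with the median. The 6 that passed as higher under each scaling were Aldh3a1, Cyp1a1, Cyp1a2, Cyp1b1, Eml4 and Nqo1, and the 12 lower targets, whose differences centring also lowers, were Col18a1, Cyp2s1, Fmo1, Glud1, Inmt, Ivns1abp, Lasp1, Nudt4, Sdc1, Slco1a1, Tpm1 and Ugt1a1. Cyp1a1 was 6.47 log2 units higher than at the low doses (adjusted exact permutation p = 0.0350) and Cyp1a2 2.87 higher (adjusted exact permutation p = 0.0188). Fmo1 was 0.61 lower than at the low doses (difference of -0.61, adjusted exact permutation p = 0.0188). Ahrr missed this test (adjusted exact permutation p = 0.333), where 2 low-dose groups are not listed. Without 1 or without 10 µg/kg 16 splits remained, whose smallest p is 0.0625, so no target could pass.

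Against the high doses (100, 1000 and 3000 µg/kg in Han/Wistar, 50, 100 and 1000 µg/kg in Long-Evans), 20 targets passed (40.8%), with 22 below 0.05 unadjusted. Inmt was the one target higher at 1 and 10 µg/kg than at the high doses, by 2.42 (adjusted exact permutation p = 0.0288). The other 19 were lower, and 7 of them were lower under both centrings as well: Aldh3a1, Ccbl1, Cyp1b1, Cyp2a1, Nqo1, Scn4b and Ube4b. With the group mean subtracted 9 targets were higher and 7 lower, and with the median 13 and 9. Cyp1b1 was lower by a difference of -3.83 and Aldh3a1 by -3.33 (adjusted exact permutation p = 0.0288 for each), against -0.38 for Cyp1a1 (adjusted exact permutation p = 0.0288 as deposited). Cyp1a2 missed the threshold against the high doses, with a difference of -0.23 (adjusted exact permutation p = 0.718). This comparison lost every call when any one of the Long-Evans groups at 50, 100 or 1000 µg/kg, or either middle dose, was left out.

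Counts and values of the gene lists below are those of the OpenArray unless the 7900HT is named. The lists were chosen with earlier results of these data known, so their contrast with all targets is partly set by that choice. The AHR battery had 12 measured members: Ahrr, Aldh3a1, Cyp1a1, Cyp1a2, Cyp1b1, Exoc3, Fmo1, Inmt, Nfe2l2, Nqo1, Tiparp and Ugt1a1. At 1 µg/kg 7 were past 2-fold higher and 2 lower in Han/Wistar rats, and 7 and 0 in Long-Evans. At 10 µg/kg 7 were higher and 2 lower in Han/Wistar rats, and 8 and 2 in Long-Evans. In either direction, 26.5% and 30.6% of all targets were past 2-fold at these doses in Han/Wistar rats, and 20.4% and 40.8% in Long-Evans. The list's median went from 1.30 to 2.54 in Han/Wistar rats and from 1.66 to 2.36 in Long-Evans, beside medians over all 49 targets of 0.09 and 0.15, and 0.21 and 0.40. Against corn oil 8 members passed as higher and 3 as lower (Fmo1, Inmt and Ugt1a1) where 81.6% of all targets were called. At the higher dose in Long-Evans the battery split moved to 6 higher and 3 lower with the group mean subtracted. On the 7900HT 4 of the 12 were past 2-fold higher and 6 lower at 1 µg/kg in Han/Wistar rats, and 5 and 5 at 10 µg/kg. In Long-Evans the 7900HT had 3 and 4, then 7 and 3. Past 2-fold in either direction there were 69.2% and 59.0% of all targets in Han/Wistar rats, and 68.4% and 89.7% in Long-Evans. The battery's 7900HT median was -0.57 and 0.11 in Han/Wistar rats and -0.28 and 3.71 in Long-Evans. Over all targets it was -0.72 and -0.24, and -1.17 and -2.07. Of the AHR signalling list (Ahr, Ahrr and Tiparp), 2 of 3 were past 2-fold higher at each dose in Han/Wistar rats, and 1 and then 2 in Long-Evans. Ahr was also past 2-fold lower at the higher dose in Han/Wistar once the group mean was subtracted. On the 7900HT, which adds Arnt, 1 of 4 was higher and 3 lower at 1 µg/kg in Han/Wistar rats, and 0 and 3 at 10 µg/kg. In Long-Evans the 7900HT had 0 and 2, then 2 and 1. Of the amino acid and intermediary metabolism list, with 6 members, none was past 2-fold at 1 µg/kg in either strain. At 10 µg/kg 2 were higher in Han/Wistar (Ccbl1 and Mawbp), and 2 higher (Ccbl1 and Pmm1) and 1 lower (Glud1) in Long-Evans. Over all 49 targets, 30.6% in Han/Wistar rats and 40.8% in Long-Evans were past 2-fold at that dose, in either direction. With the group mean subtracted none of the list was past 2-fold higher and 2 were lower in each strain, and with the median subtracted the Long-Evans split was 0 and 2. Of the 5 members on the 7900HT, 1 was past 2-fold higher and 1 lower at 1 µg/kg in Han/Wistar rats, and 2 and 0 at 10 µg/kg. In Long-Evans the 7900HT had 0 and 3, then 0 and 5. Cyb5a, the cytochrome b5 electron donor of this list, is given in the authors' deposited table of the OpenArray as 0.75 and 0.74 in Han/Wistar rats and 0.58 and 0.60 in Long-Evans. It was nearly the same at both doses and above its corn oil groups, whose highest values there were 0.06 and 0. The list named for proteasome and protein quality in the endoplasmic reticulum had 4 measured members (Psmb4, Ern1, Gfer and Uvrag). It holds the autophagy gene Uvrag and leaves out Pomp, a proteasome maturation protein, so its counts describe these 4 targets only. None was past 2-fold on the OpenArray at either dose. On the 7900HT 0 were past 2-fold higher and 1 lower at each dose in Han/Wistar rats. In Long-Evans 0 were higher there, and 3 and then all 4 were lower. On the OpenArray Psmb4, a proteasome beta subunit, is listed in the authors' deposited table at 0.78 and 0.96 in Han/Wistar rats and at 0.31 and 0.78 in Long-Evans. Ern1, a sensor of unfolded proteins, is likewise listed at -0.26 and -0.61, and at -0.37 and -0.65. Of the 7 members on the cell surface, cytoskeleton and trafficking, 1 was higher and 1 lower at 10 µg/kg in Han/Wistar rats and 3 and 1 in Long-Evans. Of all 49 targets, 30.6% were past 2-fold in either direction at that dose in Han/Wistar rats, and 40.8% in Long-Evans. With the group mean subtracted the counts of this list were 1 and 2, and 1 and 3, and with the median 1 and 1 in each strain. Of its 6 members on the 7900HT, 1 was past 2-fold higher and 3 lower at 1 µg/kg in Han/Wistar rats, and 2 and 3 at 10 µg/kg. In Long-Evans the 7900HT had 0 and 3, then 1 and 5. Against corn oil 1 of the 7 passed as higher (Eml4) and 3 as lower (Ivns1abp, Lasp1 and Sdc1), where 81.6% of all targets were called.

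The strains, which do not share control samples, gave similar profiles across targets on the OpenArray. Of 49 targets 44 had the same sign at 1 µg/kg and 45 at 10 µg/kg, and Pearson's r across targets was 0.95 and 0.96 (Spearman's rho 0.92 and 0.98). These describe targets, which are not independent replicates, and a few large values weigh on r. Past 2-fold in both strains at 1 µg/kg were 6 higher targets, Ahrr, Aldh3a1, Cyp1a1, Cyp1a2, Cyp1b1 and Nqo1, and 2 lower, Cyp2s1 and Nrbp2. At 10 µg/kg there were 9 higher, with Ccbl1, Scn4b and Tiparp added, and 5 lower, Cyp2s1, Inmt, Mug1, Sdc1 and Ugt1a1. The widest gap was that of Ahrr, where Long-Evans exceeded Han/Wistar by 3.31 at the higher dose. Scn4b was 1.08 and 1.91 log2 units higher in Long-Evans, and Tiparp 1.22 lower at 10 µg/kg (difference of -1.22). Between corn oil groups the strain gap (Long-Evans minus Han/Wistar) of Ahrr was -0.63 at 96 h and -2.29 at 240 h, that of Scn4b 0.24 and -2.94, and that of Tiparp 0.09 and -0.35. At 0.001 and 0.1 µg/kg the gap of Scn4b was -2.94 and -1.57. On the 7900HT the gaps of Ahrr and Tiparp had the opposite sign at 1 and 10 µg/kg, at -11.04 and -1.78 for Ahrr and 1.89 and 4.19 for Tiparp. Corn oil gaps there were -10.84 for Ahrr at 96 h and 1.63 and -3.24 for Tiparp at 96 and 240 h. With 1 value per dose and strain, no strain difference was tested.

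On the 7900HT the controls spread more, and most targets lay below 0. The median width of the corn oil range there was 2.44 in Han/Wistar rats and 1.48 in Long-Evans, against 0.53 and 0.27 on the OpenArray. Past 2-fold in either direction were 27 of 39 targets (69.2%) at 1 µg/kg and 23 of 39 (59.0%) at 10 µg/kg in Han/Wistar rats, and 26 of 38 (68.4%) and 35 of 39 (89.7%) in Long-Evans. Cyp1a1 is given in the authors' deposited table of this platform as 6.77 and 7.90 in Han/Wistar rats and 8.14 and 12.14 in Long-Evans. Cyp1a2 is given in the authors' deposited table of this platform as 2.51 and 1.60, and 2.26 and 3.90. Ahrr went from 4.82 at 1 µg/kg to -4.68 at 10 µg/kg in Han/Wistar rats and stood at -6.23 and -6.46 in Long-Evans in that authors' deposited table, opposite in sign to the OpenArray in 3 of 4 groups. Of targets past 2-fold higher on the OpenArray and measured on both, the 7900HT value was above 0 for 5 of 7 at 1 µg/kg and 7 of 9 at 10 µg/kg in Han/Wistar rats, and for 5 of 7 and 8 of 12 in Long-Evans. Of those past 2-fold lower it was below 0 for 3 of 4 and 4 of 4 in Han/Wistar rats, and for 1 of 1 and 2 of 5 in Long-Evans. Among targets new on the OpenArray at 10 µg/kg in Long-Evans, Ccbl1, Cmkor1, Inmt, Pmm1 and Ugt1a1 had the opposite sign on the 7900HT. Eml4, Glud1, Sdc1 and Tiparp were past 2-fold the same way on both. Whatever their OpenArray value, 68.4% and 57.9% of shared targets lay below 0 on the 7900HT at 1 and 10 µg/kg in Han/Wistar rats. The Long-Evans shares were 73.0% and 65.8%, so a 7900HT value below 0 says little about a single lower target. Pearson's r between the platforms across shared targets was 0.34 and 0.65 in Han/Wistar rats and 0.56 and 0.62 in Long-Evans. In Long-Evans at 10 µg/kg the 7900HT median was -2.73 over 25 shared targets with 2 rows in the raw table and 3.51 over 13 with 4 rows, and the part of this split in the disagreement was not tested. Inmt, for example, is at 0.20 there in the authors' deposited table, against -1.99 on the OpenArray.

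Against corn oil 12 of 39 targets passed on the 7900HT (30.8%), 4 higher and 8 lower, with 18 below 0.05 unadjusted. With targets of 4 rows and of 2 rows centred apart, 21 passed, 11 higher and 10 lower. The higher ones were Cyp1a1, Cyp1a2, Derl1 and Eml4, each also called higher on the OpenArray as deposited, though Derl1 turned there with the group mean subtracted. The 8 lower ones were Cmkor1, Fmo1, Ghr, Glud1, Lasp1, Sdc1, Srxn1 and Tpm1. Of these, Fmo1, Ghr, Glud1, Lasp1, Sdc1 and Tpm1 were called lower on the OpenArray as well, Cmkor1 was not called there, and Srxn1 was called higher there only as deposited, since its sign turned with the group mean subtracted and it missed the threshold with the median subtracted (adjusted exact permutation p = 0.223). Ghr, the growth hormone receptor, is listed at -2.72 and -2.28 in Han/Wistar rats and -3.50 and -5.22 in Long-Evans rats in the authors' deposited table of the 7900HT, and at -0.43 and -0.36, and -0.34 and -0.70, in that of the OpenArray. Eml4 has no 7900HT value in Long-Evans at 1 µg/kg, and its test used 84 splits. The median over all 7900HT targets was itself below 0, at -0.72 and -0.24 in Han/Wistar rats and at -1.17 and -2.07 in Long-Evans rats. The exact permutation test called 0 of 39 targets (0.0%) against the low doses and 0 of 39 (0.0%) against the high doses, with 1 target below 0.05 unadjusted in each.

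**Figure D4:**
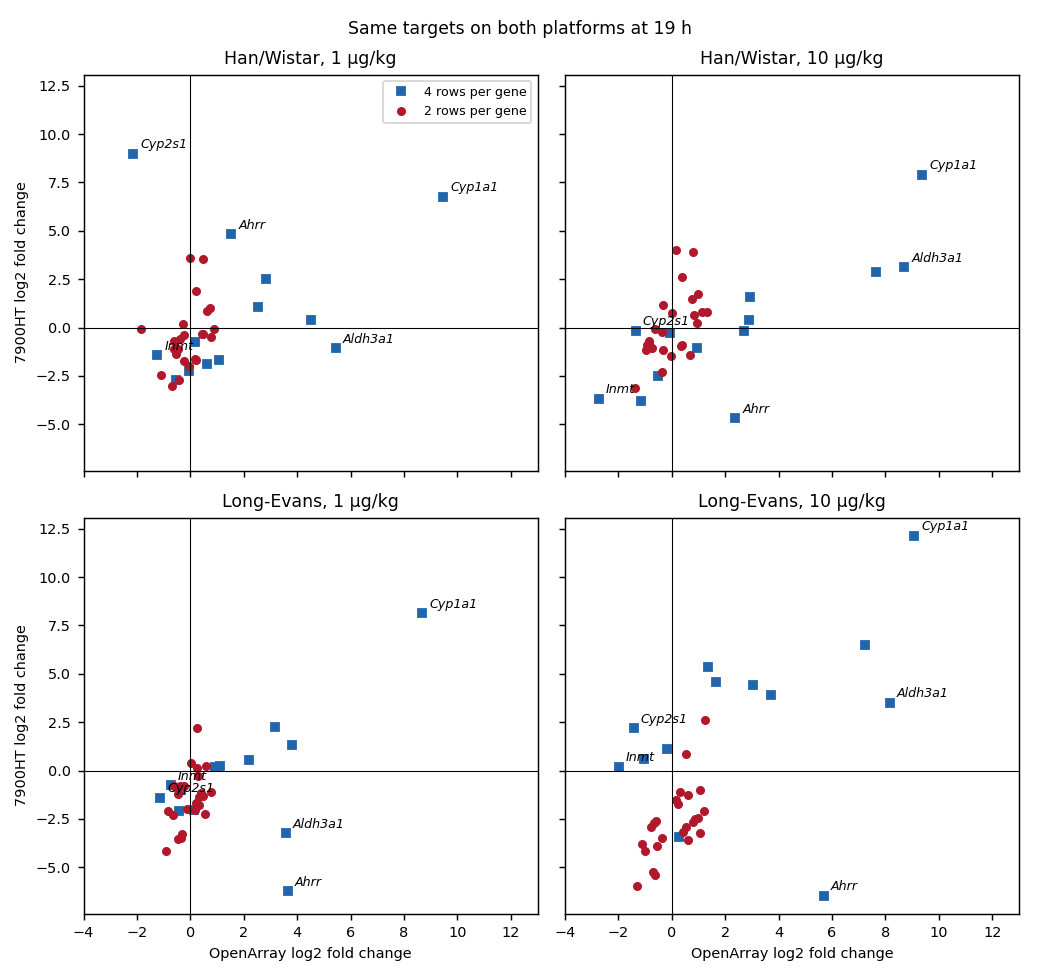
OpenArray (horizontal axis) against 7900HT (vertical axis) log2 fold change of shared targets in each strain and dose, with targets of 4 rows as squares and of 2 rows as circles; each point is 1 target in 1 group. Cyp1a1 is at 9.07 and 12.14 in Long-Evans at 10 µg/kg, where the targets of 2 rows have a 7900HT median of -2.73.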

How the data were processed

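Per the labels' protocols, liver cDNA was amplified by quantitative PCR on both platforms. The deposited tables hold 1 log2 value per gene, strain, dose and time, computed by the authors as a fold change against 19 h corn oil of the same strain, although the file headers do not state the log base. How the authors normalised, treated missing wells and averaged animals is not given in the sources used here, and R 2.12.2 was used per the submitters' processing notes. Another 304 raw columns carry animal codes that match no label and were not used. An ending of unstated meaning was removed from 4 gene names (Eml4, Ivns1abp, Perp and Tiparp).

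Because deposited values have no replicates, groups were the units. Middle doses were compared with corn oil, low-dose and high-dose groups by two-sided exact permutation of group labels within strain, on the mean difference averaged over strains, with Benjamini-Hochberg adjustment over a platform's targets at 0.05. Corn oil gave 210 splits (smallest p 0.00476) and the dose groups 100 (smallest p 0.01). Past 2-fold means an absolute log2 value of 1 or more. Groups missing a target were dropped for it. Alternatives were 1.5-fold and 4-fold thresholds, centring on the group mean or median, the 7900HT, each strain alone, a joint adjustment and leaving out single groups; list centring and joint adjustment were chosen after seeing the data. The doses, gene lists and tests were chosen with earlier results of these data known. Any target could be named, and the text gives full values for list members, new targets, targets with a large step and the extremes of each dose. On simulated data of 60 targets, each test called 100% of 2-fold and 4-fold shifts and 0.667% (corn oil), 4.0% (low doses) and 2.0% (high doses) of unchanged targets. Independent noise was drawn, so targets that shift together are not covered. Its spread was the median over targets of the corn oil spread in each strain, and each shift was equal in all middle-dose groups. Recovery is therefore unknown for targets with a wider corn oil spread, such as Aldh3a1, Cyp1b1 and Scn4b, or with unequal shifts. Gene symbols Ccbl1, Cmkor1 and Mawbp matched as older names of Kyat1, Ackr3 and Pbld1 in RefSeq (GRCr8). Scripts ran under Python 3.11.15 with pandas 2.3.3, numpy 2.4.6 and scipy 1.17.1, and figures were drawn with matplotlib 3.10.9.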

Additional observations from a re-analysis of the deposited data

Results flagged for a closer look

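For 3 targets both middle doses lay above 0 in one strain and below 0 in the other, and these differences were not tested. Uvrag, an autophagy gene, was -0.04 and -0.02 in Han/Wistar rats and 0.33 and 0.55 in Long-Evans rats in the authors' deposited table of the OpenArray, a mean gap of 0.4668 (Long-Evans minus Han/Wistar). Its corn oil groups at other times lay between -0.69 and -0.39 in Han/Wistar rats and at 0.22 and -0.02 in Long-Evans rats in the authors' deposited table. Nfe2l2 was -1.86 and -1.05 in Han/Wistar rats and 0.21 and 5.34 in Long-Evans rats in the authors' deposited table of the 7900HT, a mean gap of 4.234, while on the OpenArray it was above 0 in all 4 groups. Pomp, a proteasome maturation protein, was 1.91 and 2.60 in Han/Wistar rats and -0.30 and -1.74 in Long-Evans rats in the authors' deposited table of the 7900HT, a mean gap of -3.274, and Han/Wistar corn oil groups there reached 2.32. The opposite signs depend on centring for Uvrag and Pomp: with the group mean subtracted Uvrag is at -0.40 and -0.63 in Han/Wistar rats and at -0.10 and -0.14 in Long-Evans, and with the group median subtracted Pomp in Long-Evans is at 0.87 and 0.53. Nfe2l2 kept opposite signs under both centrings.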

How the results depend on the processing

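With a 1.5-fold threshold the targets past it at the lower and higher dose were 23 and 32 in Han/Wistar rats and 19 and 36 in Long-Evans, the new ones 11 and 12, and 10 and 17, and the steps 12 in each strain. With a 4-fold threshold those past it were 6 and 9, and 6 and 7, and 1 was new at the higher dose in Long-Evans. Subtracting the group mean gave 8 new targets at the lower and 10 at the higher dose in Han/Wistar rats and 8 at the lower dose in Long-Evans. It also left 1 AHR signalling member past 2-fold at the higher dose in Long-Evans and brought 1 proteasome and protein quality member past it in each strain; subtracting the median left 2 cell surface members past it in Long-Evans. Asking for the call at every higher dose left 3 new targets at the lower dose in Han/Wistar rats, and asking for a step larger than the corn oil range left 3 steps in each strain. Shared targets past 2-fold on the 7900HT numbered 26 at the lower dose in each strain and 35 at the higher dose in Long-Evans, and 17 at the lower dose in Long-Evans with gene sets of 4 and 2 rows centred apart. On the 7900HT the test called 12 targets against corn oil, 0 against low doses and 0 against high doses (18, 1 and 1 below 0.05 unadjusted), and 21 (11 higher, 10 lower), 0 and 0 with the gene sets centred apart (23, 8 and 7). Han/Wistar alone gave 0 calls against corn oil (27 below 0.05 unadjusted, 21 splits) and Long-Evans alone 0 (0 below, 10 splits, smallest p 0.1), since fewer splits limit p. Leave-one-out counts ranged from 0 to 40 against corn oil, 0 to 35 against low doses and 0 to 19 against high doses. The count of 0 arose without either middle dose in all 3 comparisons, which leaves 24 or 16 splits, and, against high doses, also without any one Long-Evans high dose (18 to 20 below 0.05 unadjusted, 60 splits). Otherwise counts stayed at 35 to 40, 24 to 35 and 17 to 19. Of all alternatives, 71 stayed within 1.5 times the reported count and 46 did not; for centring and the 7900HT the cause was not tested.

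No paired analysis was possible because the deposited tables give 1 value per group and carry no replicate numbers, and for the same reason single animals could not be left out. The spread between animals, the signal over background and the handling of wells without product are unknown, and on the OpenArray the corn oil groups of Ahrr, Aldh3a1, Cyp1a1, Cyp1b1, Exoc3, Inmt and Scn4b alone spread past 2-fold in both strains. On the 7900HT they did so for 39 targets in Han/Wistar rats and 30 in Long-Evans.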
